A study of Mus musculus with 18 samples.

Results

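The genes described here are 40 genes of G2 and mitosis, the stretch of the cell cycle between the end of DNA replication and the separation of the daughter cells. They were taken by gene symbol from a list of names, and all 40 were found among the 27179 genes of the count table. Their transcripts were measured by RNA-seq in thymic epithelial cells (TEC), the stromal cells that support and select developing T cells, of C57BL/6 mice. The study compared wildtype (WT) mice with mice labelled as Kat7 knockout (KO), and sorted 3 subsets from each: cortical TEC (cTEC), and medullary TEC whose surface MHC class II was either high (mTEChi) or low (mTEClo). Every pool of mice gave 1 library of each subset. Pools 1, 2 and 3 were WT and pools 4, 5 and 6 were KO, so the 18 libraries formed 6 groups of 3. The number of mice in a pool, their age and sex, the cells in which Kat7 was deleted and the deleted exons are not given in the sources used here. Days of sorting or sequencing are not given either, so a batch running with the pools and the genotype cannot be told apart.

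A dividing cell builds up cyclin B and its kinase CDK1 during G2, and the activity of this pair starts mitosis. Kinetochore proteins then tie the chromosomes to a spindle that kinesin motors shape, the spindle checkpoint holds the cell until every chromosome is attached, and the anaphase-promoting complex ends mitosis by marking cyclin B and securin for destruction. Most of these genes are transcribed late in the cycle and kept low in resting cells through promoter elements read by the DREAM complex, B-MYB and FOXM1. Postnatal mTEC are known to turn over faster than cTEC. KAT7 is a histone acetyltransferase of the MYST family that has been linked to the licensing of replication origins.

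Promoters of 8 members are shown, picked because they hold, or lack, letters through which late cell cycle promoters are commonly recognised. Each is the stretch of 100 bases before a transcription start, written 5′ to 3′ along the gene, from RefSeq on GRCm38.p6. Capitals mark TTTGAA, the core of the cell cycle genes homology region, with its reverse complement TTCAAA, and CCAAT, the box bound by NF-Y, with its reverse complement ATTGG. A variant core, TTCGAA, was searched as well. The 8 do not stand for the whole set, since most members not shown, among those with a promoter sequence, held no core in the same stretch. Bub3 and Prc1 each have another start, not shown, whose 100 bases held no core.
Cdk1, chr10:69352913-69353012, minus strand: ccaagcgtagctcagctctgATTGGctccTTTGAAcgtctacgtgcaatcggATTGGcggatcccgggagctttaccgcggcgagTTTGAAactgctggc
Ube2c, chr2:164769829-164769928, plus strand: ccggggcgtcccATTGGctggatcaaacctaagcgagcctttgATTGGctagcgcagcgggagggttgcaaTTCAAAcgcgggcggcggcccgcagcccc
Cdc20, chr4:118437344-118437443, minus strand: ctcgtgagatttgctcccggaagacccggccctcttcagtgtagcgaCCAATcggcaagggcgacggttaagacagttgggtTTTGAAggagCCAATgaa
Top2a, chr11:99024190-99024289, minus strand: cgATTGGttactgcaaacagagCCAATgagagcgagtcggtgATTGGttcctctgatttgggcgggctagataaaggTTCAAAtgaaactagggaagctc
Kif11, chr19:37376282-37376381, plus strand: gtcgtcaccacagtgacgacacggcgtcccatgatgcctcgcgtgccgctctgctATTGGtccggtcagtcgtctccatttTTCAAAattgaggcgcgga
Prc1, chr7:80294376-80294475, plus strand: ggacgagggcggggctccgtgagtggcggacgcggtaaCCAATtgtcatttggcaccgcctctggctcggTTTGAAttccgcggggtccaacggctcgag
Bub3, chr7:131560270-131560369, plus strand: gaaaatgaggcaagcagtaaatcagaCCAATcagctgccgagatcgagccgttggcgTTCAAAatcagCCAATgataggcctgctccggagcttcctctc
Ccnb1, chr13:100786487-100786586, minus strand: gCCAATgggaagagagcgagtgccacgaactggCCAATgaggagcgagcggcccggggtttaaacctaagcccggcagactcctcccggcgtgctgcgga

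Promoter windows from 250 bases before to 50 bases after the start were found for 34 of the 40 members. Both strands were searched. The last T of CCAAT can be the first letter of TTTGAA, so the motifs can overlap by 1 base. TTTGAA or TTCGAA occurred in 26 of the 34 genes (76.5%), against 21.7% of all 27025 genes with a window. CCAAT occurred in 26 of the 34 (76.5%), against 41.1% of all genes. Cdk1 carried 2 copies of TTTGAA and 2 CCAAT boxes within the printed stretch, whereas in Ccnb1 the window held CCAAT but neither TTTGAA nor TTCGAA. Other forms of the core were not searched, so Ccnb1 cannot be said to lack the element. The difference between WT mTEChi and WT mTEClo was not called for Bub3 and Pttg1. Of these, Bub3 held both motifs in its window and Pttg1 held neither. The windows of Birc5, Mad2l1, Nusap1 and Nuf2, which were higher in WT mTEChi, held neither motif as well. These matches describe letters and were not tested as binding sites.

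Library totals ran from 3554089 counts in WT mTEChi pool 1 to 20054360 in KO cTEC. Levels are given as CPM, that is counts scaled to the size of each library. Kat7 itself reached 0.765 to 4.16 CPM in 9 KO libraries, far below the 38.6 to 83.4 CPM of the 9 WT ones, with no overlap. Epithelial markers (Epcam, Krt8, Krt18, Krt5, Krt14 and Foxn1) summed to 3765 to 8766 CPM in all libraries. The sum was lowest in WT mTEChi, at 3765 to 4133 CPM, against 6386 to 7462 CPM in KO mTEChi. Aire and 6 other markers of mature mTEC summed to 27330 to 28710 CPM in WT mTEChi, against at most 10300 CPM in the WT libraries of the other subsets. Most of this sum was H2-Ab1 and H2-Aa, genes of the MHC class II by which the medullary subsets were sorted. Aire itself was at a mean of 1184 CPM in WT mTEChi, 37.6 CPM in WT mTEClo and 49.8 CPM in WT cTEC. Markers of other cells were present too. The 12 markers of macrophages and dendritic cells summed to 1571 to 1630 CPM in WT mTEChi and 835 to 1001 CPM in KO mTEChi, against 37.9 to 218 CPM in the other 12 libraries. Most of this sum was a single gene, Lyz2, at a mean of 1447 CPM in WT mTEChi and 818 CPM in KO mTEChi. The 20 thymocyte markers summed to 122 to 245 CPM in WT cTEC and 426 to 670 CPM in KO cTEC. In sorted bulk samples, fewer cells of a type and less RNA per cell cannot be told apart.

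All 40 members passed the filter on low counts. The library kit does not record the strand, and in the GENCODE annotation several members share exonic bases with a gene on the other strand, so that reads there cannot be told apart. The share was 29.3% of the exonic bases of Kif20a (with Cdc23), 22.8% of Ube2c (with Tnnc2), 15.1% of Kif4 (with Pdzd11), 12.7% of Cdc25c (with Gm3550), 12.5% of Ccna2 (with Exosc9) and 11.1% of Prc1 (with Rccd1). Summed over the 40 genes, the level was 1708, 1974 and 1911 CPM in the 3 WT mTEChi libraries, 575, 585 and 625 CPM in WT mTEClo and 480, 575 and 574 CPM in WT cTEC. In the KO the sums were 1610, 1563 and 1322 CPM in mTEChi, 740, 736 and 687 CPM in mTEClo and 901, 791 and 795 CPM in cTEC. The order of subsets in the WT was thus mTEChi above both others, with mTEClo and cTEC close together. The KO libraries lay below the WT libraries in mTEChi and above them in cTEC, and also in mTEClo, where this rested on 3 genes. Bub3, Pttg1 and Cdc25b supplied much of the sum outside mTEChi. Without these 3 genes the other 37 summed to 1375 to 1621 CPM in WT mTEChi, 231 to 291 CPM in WT mTEClo and 214 to 312 CPM in WT cTEC. In the KO they summed to 955 to 1240 CPM in mTEChi, 250 to 336 CPM in mTEClo and 410 to 526 CPM in cTEC. The KO and WT libraries thus stayed apart in mTEChi and cTEC and overlapped in mTEClo.

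**Figure D1:**
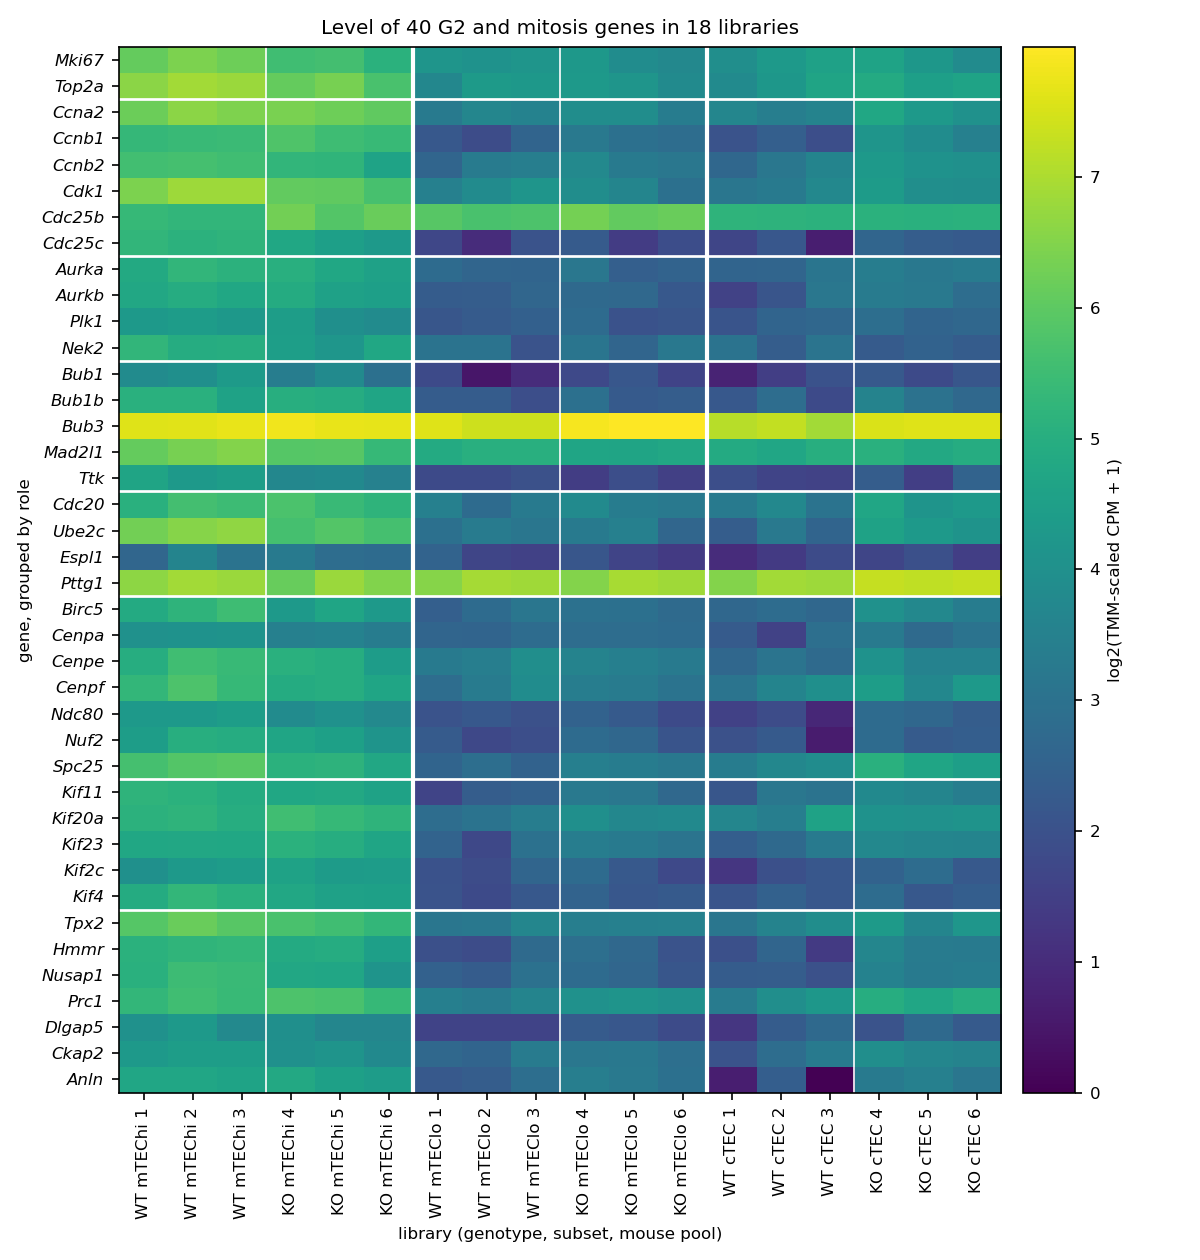
Level of each of the 40 genes (lines of the grid, grouped by role) in each of the 18 libraries (columns, named by genotype, subset and mouse pool), as log2 of TMM-scaled CPM plus 1. Nearly all genes are brightest in the 6 mTEChi libraries, while Bub3, Pttg1 and Cdc25b are bright in every group.

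The comparison of subsets within the WT asks in libraries of which sorted subset the genes of division are higher. Transcripts of 37 of the 40 genes were higher in mTEChi than in mTEClo, and those of 38 were higher in mTEChi than in cTEC (edgeR's quasi-likelihood test, Benjamini-Hochberg adjusted p below 0.05). Over all genes tested, 32.6% were higher and 26.7% lower in the first comparison, and 35.9% were higher and 28.5% lower in the second. Of the 40, 1 was lower in the first and 0 in the second. There an unadjusted p under 0.05, for which all genes were not counted, and both other tools likewise gave 0. The median log2 difference of the 40 was 2.60 against mTEClo and 2.52 against cTEC, where the median of all genes was 0.08 and 0.14. All 37 that were higher than in mTEClo were also higher than in cTEC. Leaving out any 1 library left 36 or 37 genes called against mTEClo and 38 against cTEC. Many markers of other cells were also higher in mTEChi than in mTEClo. These were 11 of 11 tested for macrophages and dendritic cells, 13 of 20 for thymocytes (2 lower) and 4 of 6 for B cells. Against cTEC they were 10 of 11, 5 of 20 (8 lower) and 4 of 6. The part of these cells in the differences between subsets was not tested.

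Mki67 and Top2a are the chromosome proteins of the set, the first coating mitotic chromosomes and the second untangling replicated DNA. Mki67 was at 67.8, 83.9 and 74.7 CPM in WT mTEChi, at 17.1, 15.9 and 16.8 CPM in WT mTEClo and at 14.5, 18.8 and 22.7 CPM in WT cTEC. Top2a was at 96.1, 116 and 109 CPM in WT mTEChi, 12.1, 19.6 and 18.3 CPM in WT mTEClo and 13.3, 17.6 and 24.5 CPM in WT cTEC. For both genes every mTEChi library lay above every library of the other subsets, which overlapped each other. The log2 difference of mTEChi from mTEClo was 2.19 (SE 0.21, adjusted p = 4.5e-08) for Mki67 and 2.70 (SE 0.23, adjusted p = 5.7e-09) for Top2a.

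In the engine of mitotic entry, Cdk1 and Ccnb1 were also highest in WT mTEChi. Cdk1, the mitotic kinase subunit, was at 85.3, 111 and 111 CPM in WT mTEChi, 10.1, 13.5 and 16.8 CPM in WT mTEClo and 7.71, 8.60 and 12.4 CPM in WT cTEC. Its cyclin, Ccnb1, was at 39.3, 41.5 and 42.3 CPM in WT mTEChi, 3.58, 2.59 and 4.91 CPM in WT mTEClo and 3.13, 4.30 and 2.77 CPM in WT cTEC. Ccnb1 was thus 11.2-fold higher in mTEChi than in mTEClo and 12.0-fold higher than in cTEC. Cdc25c, a phosphatase that activates CDK1, had the largest difference of the 40, with log2 values of 4.08 (SE 0.44) against mTEClo and 4.10 (SE 0.41) against cTEC. Ube2c, the ubiquitin-conjugating enzyme of the anaphase-promoting complex, came next against cTEC at 3.95 (SE 0.25, adjusted p = 6.04e-11). Spc25, a subunit of the NDC80 kinetochore complex, had the smallest adjusted p against mTEClo (log2 3.38, SE 0.21, adjusted p = 8.58e-11).

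A group of 3 members departed from this order. Bub3, a checkpoint protein that also works outside mitosis, was at 194, 199 and 213 CPM in WT mTEChi, 192, 168 and 166 CPM in WT mTEClo and 141, 152 and 117 CPM in WT cTEC. The difference from mTEClo was not called (log2 0.20, SE 0.10, adjusted p = 0.0958), and that from cTEC was (0.57, SE 0.10, adjusted p = 7.41e-05). Pttg1 encodes securin, the inhibitor of the protease that opens cohesin rings. It was at 98.9, 116 and 111 CPM in WT mTEChi, 92.9, 120.4 and 114 CPM in WT mTEClo and 90.8, 116 and 112 CPM in WT cTEC. These libraries overlapped fully, with a log2 difference of 0.00 (SE 0.15) against mTEClo and 0.04 (SE 0.15) against cTEC. Cdc25b, a phosphatase that starts CDK1 activation at the centrosome, was lower in WT mTEChi (40.2, 37.8 and 37.0 CPM) than in WT mTEClo (59.7, 51.3 and 53.5 CPM), with a log2 difference of -0.52 (SE 0.12, adjusted p = 0.00103). Per length of transcript, Bub3 (66.4 to 98.1 RPKM) and Pttg1 (61.1 to 62.7 RPKM) were among the 3 highest members in each WT subset. Espl1, the protease that Pttg1 inhibits, was the lowest in WT mTEChi and cTEC at 1.20 and 0.257 RPKM.

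Between the other WT subsets the genes differed little. Of the 40, 3 were higher in mTEClo than in cTEC (Cdc25b, Bub3 and Cenpe) and 3 were lower, against 13% and 14.4% of all genes. The lower ones were Spc25 (log2 -1.14, SE 0.21, adjusted p = 0.000477) and the kinesins Kif20a (-0.98, SE 0.26, adjusted p = 0.00746) and Kif11 (-0.82, SE 0.30, adjusted p = 0.0488). The call of Kif20a was lost without WT cTEC pool 3 and with only these groups fitted. Without WT cTEC pool 2 the higher count was 6, and with the mouse pool as a block it was 6 as well. Counts behind these values were small, with a median of 46 reads per gene and library in WT mTEClo and 102.5 in WT cTEC, and as few as 3 reads (Bub1) and 0 reads (Anln) in a library. WT mTEChi had a median of 234.5 reads.

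In the KO the gap between mTEChi and the other subsets was smaller. There, 36 members were higher in mTEChi than in mTEClo (median log2 1.92, against 23% of all genes, with 22.4% lower) and 35 were higher than in cTEC (median 1.43, against 34%, with 28.4% lower). In both genotypes and against both other subsets, 34 members were higher in mTEChi. The exceptions were Bub3, Pttg1, Cdc25b, the centromeric histone Cenpa, the spindle protein Ckap2 and Spc25. Pttg1 was lower in KO mTEChi than in KO cTEC (log2 -0.79, SE 0.15, adjusted p = 0.000176). Of the 40, 16 were lower in KO mTEClo than in KO cTEC and 2 were higher, against 15.8% and 21.2% of all genes, led by Spc25 (log2 -1.52, SE 0.19) and Ube2c (-1.27, SE 0.23). Without KO cTEC pool 4 the count of 16 was 9, and without KO mTEClo pool 6 it was 10.

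**Figure D2:**
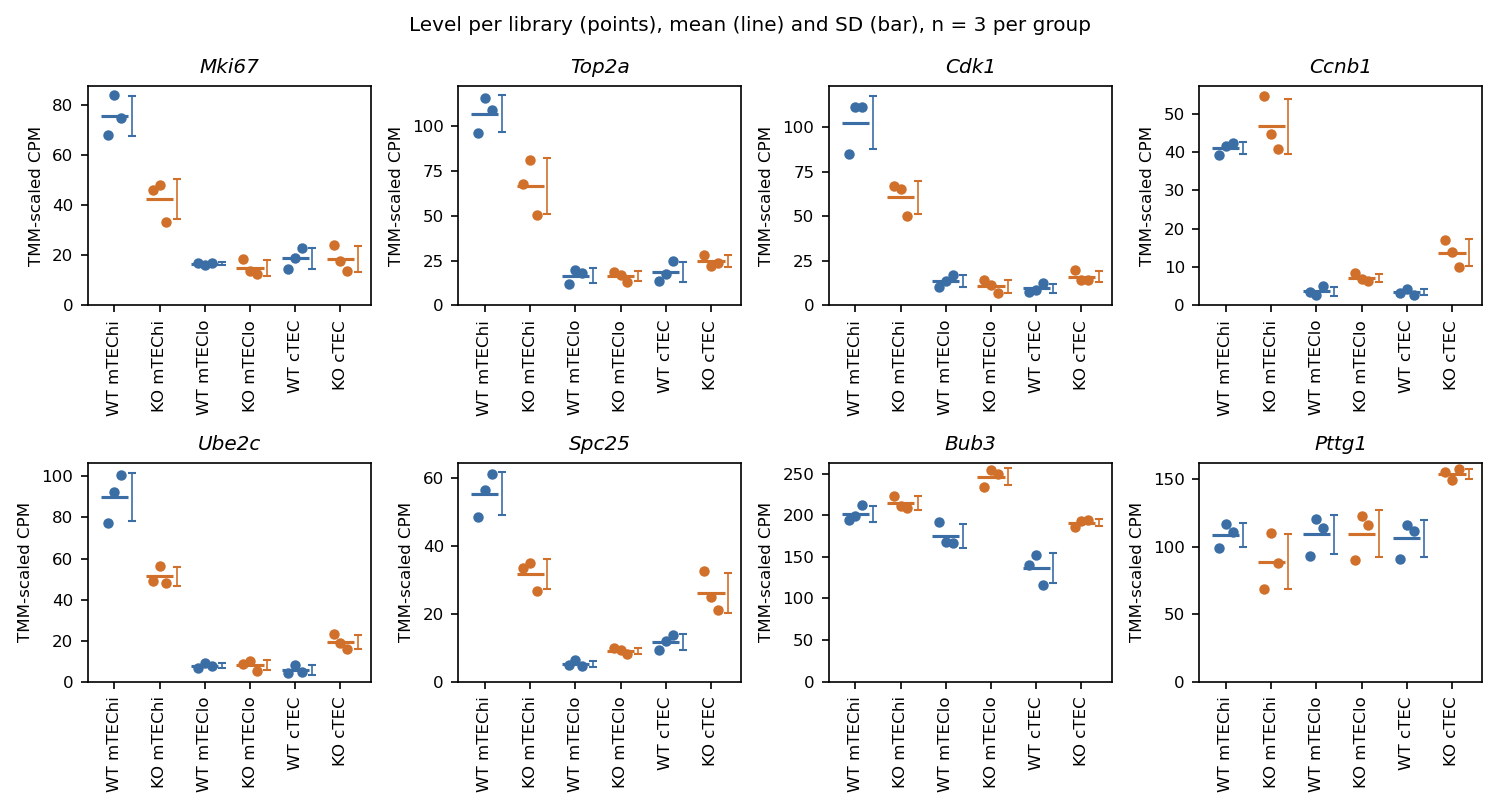
TMM-scaled CPM of 8 genes in the 6 groups; each point is 1 library, the line is the mean and the bar the SD of 3 libraries, with WT in blue and KO in orange. Mki67, Top2a, Cdk1, Ube2c and Spc25 are lower in KO than in WT mTEChi without overlap, Ccnb1 overlaps there and is higher in KO cTEC and mTEClo, and Bub3 and Pttg1 show no step between the WT mTEChi and mTEClo groups of the size seen in the other genes.

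The comparison of KO with WT asks what loss of Kat7 did to these genes in each subset. In cTEC, 26 of the 40 rose and 0 fell, where 22.3% of all genes rose and 26.7% fell. At an unadjusted p under 0.05, 29 were higher and 0 lower, and neither DESeq2 nor limma called any lower. The share of all genes was not counted at the unadjusted threshold. The median log2 fold change of the 40 was 0.83, against -0.02 for all genes tested, and 37 of the 40 estimates were above 0. In 23 members every KO library lay above every WT library, and in 1 below, each against 25.5% of all genes. Without WT cTEC pool 1 the count of genes that rose was 17, and without KO cTEC pool 4 it was 17. It was also 17 when the cTEC libraries were fitted alone.

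Ccnb1 rose in cTEC from 3.13, 4.30 and 2.77 CPM in the WT to 17.1, 13.9 and 10.1 CPM in the KO (log2 2.00, SE 0.23, adjusted p = 5.82e-07). The lowest KO library lay above the highest WT library. Within the same role group Ccna2 (0.90, SE 0.19), Ccnb2 (1.03, SE 0.25), Cdk1 (0.75, SE 0.24) and Cdc25c (1.06, SE 0.41) rose as well, 5 of 6 genes in all. Cdk1 was at 20, 14.4 and 14.0 CPM in KO cTEC, with no overlap with the WT, but its call was lost without WT cTEC pool 1 or 2 or KO cTEC pool 4 and with thinned libraries. The exception was Cdc25b, which was at 35.4, 35.2 and 34.0 CPM in the WT and 33.7, 33.0 and 33.3 CPM in the KO (log2 -0.07, SE 0.12, adjusted p = 0.667). The counts of Ccnb1 are uncertain, since it has processed copies of near-identical sequence. Of these, the pseudogene Ccnb1-ps has its own counts and rose in cTEC too (log2 2.08, SE 0.30, adjusted p = 1.1e-05).

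The exit from mitosis and the kinetochore moved in the same direction in cTEC. Ube2c went from 4.08, 8.33 and 4.95 CPM to 23.1, 18.7 and 16.1 CPM (log2 1.72, SE 0.24, adjusted p = 7.37e-06), again without overlap. With it rose Cdc20 (1.10, SE 0.24), which recruits substrates to the same complex, and Pttg1 (0.53, SE 0.15), one of those substrates, so that 3 of the 4 genes of the anaphase switch rose. Pttg1 was at 155, 149 and 157 CPM in KO cTEC, above all WT cTEC libraries. Spc25 went from 9.24, 12.1 and 13.9 CPM to 32.6, 24.9 and 21.1 CPM (log2 1.15, SE 0.18, adjusted p = 3.36e-05). Together with it Ndc80 (1.52, SE 0.31), Birc5 (1.14, SE 0.23), which targets Aurora B to centromeres, Cenpe (0.99, SE 0.23) and Cenpa (0.83, SE 0.29) rose, 5 of the 7 centromere and kinetochore genes.

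Proteins of the spindle and of cytokinesis rose in 6 of 7 cases in cTEC. Anln, the actin-binding anillin of the cleavage furrow, had the highest estimate (log2 2.42, SE 0.58, adjusted p = 0.00196), from 0.582, 4.24 and 0 CPM in the WT to 8.65, 10.2 and 7.84 CPM in the KO. The WT values of Anln spread widely. Its estimate ran from 1.80 to 5.09 when 1 library was left out, and its call was lost with the cTEC libraries fitted alone (adjusted p = 0.0627). Hmmr (1.62, SE 0.34), Nusap1 (1.38, SE 0.25), Prc1 (1.06, SE 0.18), Ckap2 (1.02, SE 0.27) and Tpx2 (0.56, SE 0.21) completed the group, and Dlgap5 was not called (0.17, SE 0.35). Of the 5 kinesins Kif11, Kif23 and Kif2c rose. Aurka and Aurkb rose among the 4 mitotic kinases, and Bub1b and Bub3 among the 5 checkpoint genes. Bub3 was at 186, 193 and 194 CPM in KO cTEC, above every WT cTEC library (log2 0.49, SE 0.10, adjusted p = 0.000532).

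Mki67 and Top2a, which are widely used as marks of proliferating cells, were not called in cTEC. Mki67 was at 23.96, 17.7 and 13.5 CPM in KO cTEC, overlapping the WT libraries (log2 -0.03, SE 0.20, adjusted p = 0.927). Top2a was at 28.4, 21.9 and 23.8 CPM (0.41, SE 0.21, adjusted p = 0.118), and it was called higher without WT cTEC pool 3 (0.67). Other members that were not called included Mad2l1 (0.07, SE 0.14), Plk1 (0.29, SE 0.27), Kif20a (0.07, SE 0.23) and Cenpf (0.62, SE 0.26, adjusted p = 0.0515). The lowest estimate was that of the centrosome kinase Nek2, at 7.20, 4.09 and 7.45 CPM in the WT and 3.96, 4.73 and 4.00 CPM in the KO (log2 -0.56, SE 0.28, adjusted p = 0.11), with overlap. Without WT cTEC pool 2 it was called lower (-0.79).

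Markers of thymocytes, many of which divide in the cortex, moved with the genotype in cTEC. Of 20 thymocyte markers 16 rose and 0 fell there (median log2 1.55), and none was at 0 in all KO libraries. Their sum was 245, 201 and 122 CPM in WT cTEC pools 1, 2 and 3 and 670, 456 and 426 CPM in KO cTEC pools 4, 5 and 6. Among the KO libraries pool 4 had the highest thymocyte sum and the highest sum of the 40 genes, in mTEChi and mTEClo as well as in cTEC. In KO cTEC pools 5 and 6 ranked the other way for the 40 genes, at 791 and 795 CPM. In WT cTEC, pool 1 was the highest for thymocyte markers and the lowest for the 40 genes. The part of thymocyte RNA in the rise of the mitotic genes was not tested. Markers of macrophages and dendritic cells went the other way in cTEC (152 to 218 CPM in the WT and 37.9 to 48.3 CPM in the KO), as did those of B cells (11.4 to 22.3 and 3.21 to 5.50 CPM). Of 11 myeloid markers tested 5 fell and 0 rose, and of 6 B cell markers 3 fell and 0 rose. Each sum was mostly a single gene, Lyz2 (means of 152 and 27.8 CPM) and Cd79b (13.2 and 2.90 CPM). Markers of cTEC themselves (Psmb11, Prss16, Ly75, Ccl25, Cxcl12 and Dll4) rose in 6 of 6 cases, from sums of 1920 to 3103 CPM in WT cTEC to 4953 to 8194 CPM in KO cTEC. Of 8 mesenchyme markers 1 rose and 5 fell in cTEC, while their sum went from 853 to 1084 CPM up to 2026 to 2211 CPM because it is mostly Dcn, at a mean of 611 CPM in the WT and 2053 CPM in the KO. The part of these shifts in the values of the 40 genes was not tested.

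**Figure D3:**
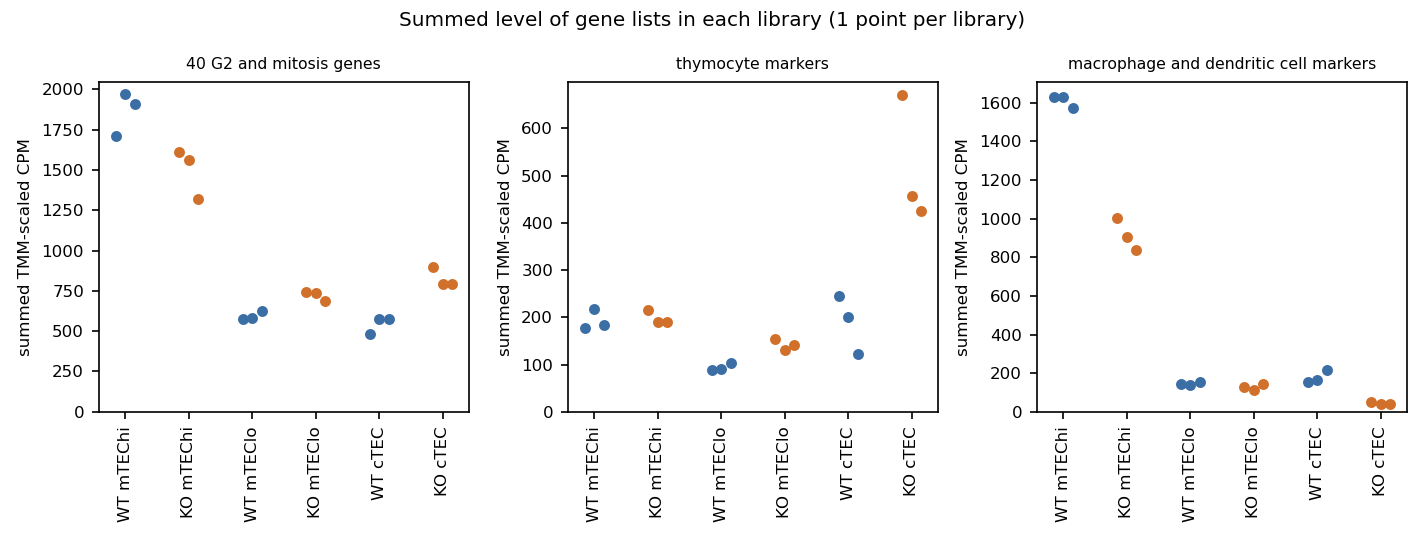
Summed TMM-scaled CPM of the 40 G2 and mitosis genes, of 20 thymocyte markers and of 12 markers of macrophages and dendritic cells; each point is 1 library, WT in blue and KO in orange. The KO cTEC libraries are above the WT cTEC libraries for the 40 genes and for the thymocyte markers. The myeloid sum, which is mostly Lyz2, is highest in WT mTEChi.

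In mTEClo 8 of the 40 genes rose and 0 fell. This share of 20% was close to the 18.9% of all genes that rose, while 15.8% of all genes fell. At an unadjusted p under 0.05, where the share of all genes was not counted, there were 8 higher and 0 lower. DESeq2 and limma called 0 lower, and 1 was called lower with the mTEClo libraries fitted alone. The median log2 fold change was 0.23, against 0.01 for all genes. In 10 members every KO library lay above every WT library and in 1 below, against 26.8% and 22.5% of all genes. The genes that rose were Ccnb1, Cdc25b, Bub3, Spc25, Prc1 and 3 of the 5 kinesins. Without WT mTEClo pool 2 the count was 5, and without KO mTEClo pool 4 it was 5.

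Bub3 had the smallest p in mTEClo, with 234, 254 and 249 CPM in the KO, above all WT mTEClo libraries (log2 0.49, SE 0.10, adjusted p = 0.00088). Ccnb1 was at 8.38, 6.82 and 6.32 CPM in KO mTEClo, also with no overlap (0.97, SE 0.25, adjusted p = 0.00512). The Ccnb1 values of WT mTEClo rest on low counts. Spc25 went from 4.90, 6.35 and 4.76 CPM to 9.94, 9.35 and 8.11 CPM (0.77, SE 0.21, adjusted p = 0.00763), a call lost with limma and with thinned libraries. The highest estimate was that of Kif11, the motor that pushes spindle poles apart, from 2.15, 4.14 and 4.61 CPM to 8.32, 8.06 and 5.56 CPM (log2 1.03, SE 0.30, adjusted p = 0.0112). It was not called without WT mTEClo pool 1. Kif23 (0.87, SE 0.29) and Kif20a (0.80, SE 0.26), both motors of the central spindle, rose as well, as did their partner Prc1 (0.64, SE 0.20), which bundles the microtubules there.

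Cdc23, with which Kif20a shares exonic bases, rose in mTEClo too (log2 0.68, SE 0.13). Mki67 was at 18.3, 13.8 and 12.3 CPM in KO mTEClo (-0.17, SE 0.21), Top2a at 18.7, 17.1 and 13.1 CPM (-0.02, SE 0.23) and Cdk1 at 14.1, 11.5 and 6.68 CPM (-0.32, SE 0.25). All 3 overlapped the WT libraries and none was called. The lowest estimate was that of Espl1 (log2 -0.36, SE 0.43, adjusted p = 0.552), at 4.80, 2.20 and 1.93 CPM in the WT and 3.45, 2.14 and 1.58 CPM in the KO. Thymocyte markers summed to 88.7 to 103 CPM in WT mTEClo and 131 to 154 CPM in KO mTEClo (5 of 20 rose and 2 fell). The 6 cTEC markers all rose in mTEClo as well, from sums of 338 to 361 CPM to 965 to 1244 CPM. The 5 markers of mTEClo went from 3745 to 4039 CPM down to 2930 to 3130 CPM (1 rose and 2 fell). Among them Ccl21a went from a mean of 1546 to 514 CPM. The 7 markers of mature mTEC went from 8630 to 9681 CPM down to 5137 to 6363 CPM (2 rose and 4 fell). The part of any of these markers in these differences was not tested.

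In mTEChi the direction was the opposite for most members. There 9 of the 40 fell and 1 rose in the fit of all libraries, against 19.3% of all genes lower and 17.1% higher. In that fit the share that fell (22.5%) was near that of all genes. The median log2 fold change was -0.44, where all genes had -0.11, and 32 of the 40 estimates were below 0. In 21 members every KO library lay below every WT library and in 1 above, against 31.4% and 24.5% of all genes. The count of genes that fell depended on the fit. It was 21 with the mTEChi libraries fitted alone, 16 with limma, 14 with all libraries thinned to the same total, 4 without WT mTEChi pool 3 and 5 without KO mTEChi pool 6. Over all genes the count that fell was 3741 in the main fit. It was 3346 to 4515 in the other fits of every replicate and 2436 to 2964 with 1 library left out. The nearness to the share of all genes thus holds for the main fit and not for every fit.

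Both chromosome proteins fell in mTEChi. Mki67 was at 46.1, 48.1 and 33.3 CPM in KO mTEChi (log2 -0.83, SE 0.20, adjusted p = 0.00359) and Top2a at 68.0, 81.4 and 50.5 CPM (-0.68, SE 0.21, adjusted p = 0.0152). Neither overlapped the WT mTEChi libraries. Cdk1 fell to 67.1, 65.4 and 50.2 CPM (-0.76, SE 0.23, adjusted p = 0.0138), whereas Ccnb1 was at 54.6, 44.7 and 40.8 CPM, overlapping the WT (0.18, SE 0.20, adjusted p = 0.495). The calls of Top2a and Cdk1 were lost without WT mTEChi pool 2 or 3 or KO mTEChi pool 6.

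Spc25 fell to 33.5, 35.0 and 26.8 CPM (log2 -0.81, SE 0.18, adjusted p = 0.00194) and Mad2l1, a checkpoint protein, from 67.8, 80.3 and 89.5 CPM to 57.7, 59.1 and 39.8 CPM (-0.60, SE 0.15, adjusted p = 0.00346). Both were separate from the WT in every library. Ttk, the kinase that starts checkpoint signalling, had the lowest estimate, from 24.4, 19.2 and 21.0 CPM to 12.0, 12.9 and 10.5 CPM (-0.86, SE 0.28, adjusted p = 0.0213). Leaving out WT mTEChi pool 1 or 3 or KO mTEChi pool 4 or 6 ended that call. Ube2c (-0.82, SE 0.22), Birc5 (-0.80, SE 0.22) and Nusap1 (-0.77, SE 0.23) were the others that fell.

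None of the 5 kinesins and none of the 4 mitotic kinases was called in mTEChi. Of the kinesins Kif20a (0.27, SE 0.23), Kif2c (0.22, SE 0.31) and Kif23 (0.17, SE 0.25) had estimates above 0, as did Prc1 (0.20, SE 0.18). The single gene that rose was Cdc25b, from 40.2, 37.8 and 37.0 CPM in WT mTEChi to 77.8, 56.4 and 70.2 CPM in KO mTEChi (0.83, SE 0.12, adjusted p = 3.58e-05), with no overlap. Bub3 was at 224, 211 and 209 CPM in KO mTEChi and was not called (0.09, SE 0.10). Markers of macrophages and dendritic cells fell beside these genes in mTEChi (6 of 11 tested fell and 1 rose). Thymocyte markers summed to 178 to 218 CPM in the WT and 190 to 215 CPM in the KO, but single ones moved in both directions (3 of 20 rose and 5 fell). Among them Thy1 went from a mean of 18.3 to 2.27 CPM and Themis from 3.78 to 22.9 CPM. The 6 epithelial markers all rose in mTEChi, with a median log2 of 1.03. Markers of the subsets moved too. The 7 markers of mature mTEC summed to 18980 to 20980 CPM in KO mTEChi, below the WT (4 fell and 0 rose), with Aire at a mean of 1184 CPM in the WT and 676.5 CPM in the KO. The 5 markers of mTEClo went from 616 to 710 CPM to 1284 to 1463 CPM (3 rose), and the 6 of cTEC from 1173 to 1252 CPM to 1832 to 2080 CPM (5 rose). Krt14, at means of 447 and 1087 CPM, was most of the mTEClo sum. Ccl25, at means of 1058 and 1531 CPM, was most of the cTEC sum. The part of myeloid or thymocyte RNA or of these epithelial and subset markers in the mTEChi values was not tested.

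**Figure D4:**
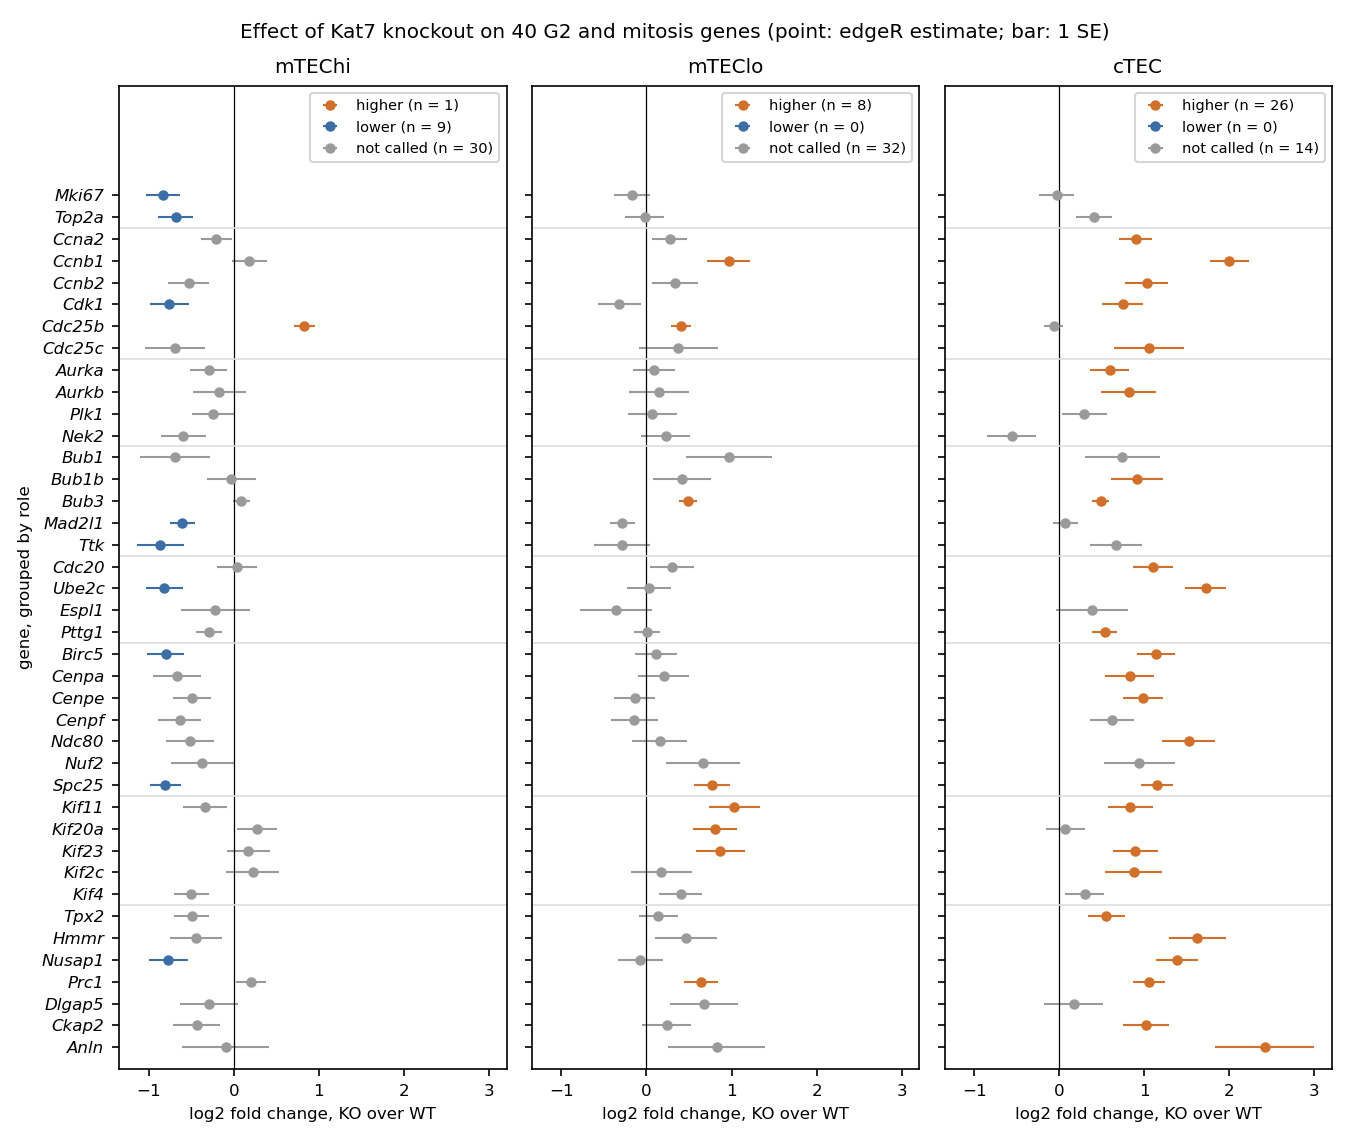
Log2 fold change of KO over WT for the 40 genes, grouped by role, in mTEChi, mTEClo and cTEC; points are edgeR estimates and bars 1 SE, with called genes coloured by direction and genes not called in grey. In mTEChi 9 genes are called lower and 1 higher, in mTEClo 8 higher, and in cTEC 26 higher, with most points moving from left of 0 in mTEChi to right of 0 in cTEC.

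The effects of the knockout were compared between subsets by the difference of their log2 fold changes, tested in the same fit. The effect in mTEChi was below that in cTEC for 27 members and above it for 1, Cdc25b (0.90, SE 0.17, adjusted p = 0.000397), against 13.2% and 18.3% of all genes. Ube2c had the largest gap (-2.54, SE 0.32, adjusted p = 6.88e-06), followed by Anln (-2.51, SE 0.77), Nusap1 (-2.16, SE 0.34), Ndc80 (-2.03, SE 0.42) and Spc25 (-1.96, SE 0.26). Ccnb1 differed by -1.81 (SE 0.30) and Cdk1 by -1.50 (SE 0.33). Between 20 and 29 members were called lower when 1 library was left out. The effect in mTEClo was below that in cTEC for 7 members, led by Ube2c (-1.69, SE 0.35), Nusap1 (-1.46, SE 0.36) and Cenpe (-1.13, SE 0.33), and above it for Cdc25b (0.47, SE 0.16), against 9.54% and 16.4% of all genes. The count of 7 was 4 without WT mTEClo pool 2 or WT cTEC pool 1, 3 without WT mTEClo pool 3 or KO mTEClo pool 6, and 2 without KO cTEC pool 4. Nusap1 lost its call there with thinned libraries, and Cenpe lost its call without WT mTEClo pool 3 or KO cTEC pool 4.

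Between the medullary subsets 2 members differed in their response, Spc25 (-1.58, SE 0.28, adjusted p = 0.00063) and Kif11 (-1.37, SE 0.39, adjusted p = 0.024), where 6.78% of all genes were lower and 6.72% higher by this test. With the mouse pool as a block 6 were called. Without WT mTEChi pool 1, KO mTEChi pool 6, KO mTEClo pool 4 or KO mTEClo pool 5 the count was 1, and Kif11 was the call lost, as it was without WT mTEClo pool 1. Spc25 was the 1 member called in all 3 subsets, lower in mTEChi and higher in both others. 4 genes (Cdk1, Birc5, Ube2c and Nusap1) were called lower in mTEChi and higher in cTEC, and 5 (Ccnb1, Bub3, Kif11, Kif23 and Prc1) higher in both mTEClo and cTEC. A further 16 were called in cTEC alone, and 8 in no subset (Plk1, Bub1, Nek2, Cenpf, Kif4, Dlgap5, Nuf2 and Espl1). The subsets share their mouse pools, so the 3 comparisons are not independent of each other.

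Regulators of these genes were measured beside them. Foxm1, a transcription factor of G2 and mitosis genes, was at 11.2 CPM in WT mTEChi, 4.88 CPM in WT mTEClo and 9.03 CPM in WT cTEC as means, and its KO effects were 0.23 (SE 0.24), -0.03 (SE 0.25) and -0.11 (SE 0.23), none called. Mybl2, which encodes B-MYB, was not called in the KO either (-0.61, -0.10 and -0.19). Cdkn1a, the CDK inhibitor p21, fell in mTEChi from a mean of 376 to 239 CPM (log2 -0.65, SE 0.12, adjusted p = 0.000247) and rose in mTEClo from 280 to 360 CPM (0.36, SE 0.11, adjusted p = 0.0178). In cTEC it was not called (-0.11, SE 0.11). Cdkn1c, the inhibitor p57, fell in all 3 subsets (log2 -1.32 in mTEChi, -1.24 in mTEClo and -2.58 in cTEC). Both come from a list of 20 CDK inhibitors and genes of G1, the phase before DNA replication, which moved in both directions. In it 4 rose and 5 fell in mTEChi, 5 and 4 in mTEClo, and 5 and 7 in cTEC. The shares that rose were 20%, 25% and 25%, against 17.1%, 18.9% and 22.3% of all genes. Those that fell were 25%, 20% and 35%, against 19.3%, 15.8% and 26.7%. The pocket protein genes Rbl2 and Rb1 rose in mTEChi (0.80 and 0.66) and in mTEClo (0.93 and 0.70), and E2f8, a repressor of the E2F family, rose in mTEClo (2.67, SE 0.31). Of 24 genes of G2 and M transcription control, 6 rose and 2 fell in mTEChi, 7 and 3 in mTEClo, and 7 and 1 in cTEC. The shares that rose were 25%, 29.2% and 29.2%, where 17.1%, 18.9% and 22.3% of all genes rose. The shares that fell were 8.33%, 12.5% and 4.17%, where 19.3%, 15.8% and 26.7% of all genes fell.

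A list of 70 other mitosis genes, with none of the 40 in it, was read in the same way. In WT mTEChi 61 of the 70 were higher than in mTEClo (87.1%, against 32.6% of all genes) and 60 were higher than in cTEC (85.7%, against 35.9%). In the KO, 26 rose and 4 fell in cTEC (median log2 0.45), 9 rose and 4 fell in mTEClo, and 1 rose and 12 fell in mTEChi (median -0.39). The share that rose in cTEC was 37.1%, where 22.3% of all genes rose. In mTEClo it was 12.9%, below the 18.9% of all genes, and the share that fell in mTEChi was 17.1%, below the 19.3% of all genes. Cdca3 (1.87, SE 0.24), Cks1b (1.07, SE 0.14) and Ckap2l (1.08, SE 0.20) had the smallest p in cTEC. In mTEChi these were the centromere gene Cenpm (-1.43, SE 0.24), Cks1b (-0.81, SE 0.14) and the kinase gene Melk (-0.77, SE 0.17). Genes of DNA replication, 36 in number, rose in 17 cases and fell in 2 in cTEC, with Rrm1, a subunit of ribonucleotide reductase, going from a mean of 49.7 to 213 CPM (log2 2.10, SE 0.23, adjusted p = 5.05e-07), and Mcm4, part of the replicative helicase, rising by 1.16 (SE 0.16). These 17 were 47.2% of the list. In mTEChi 4 replication genes rose and 4 fell (11.1% each, against 17.1% and 19.3% of all genes). In mTEClo 2 rose and 6 fell (5.56% and 16.7%, against 18.9% and 15.8% of all genes). Cohesin and condensin genes, 23 in number, rose in 6 cases and fell in 6 in cTEC (26.1% each, against 22.3% and 26.7% of all genes).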

How the data were processed

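RNA was taken from sorted TEC subsets, amplified as full-length cDNA with SMART-Seq v4, made into Nextera XT libraries and sequenced as paired ends, per the labels' protocols. The deposited values were raw counts of reads per gene, which the authors made with featureCounts on mm10, per the submitters' processing notes. The aligner, versions and settings for multimapping reads are not given in the sources used here. The joint table and the 18 single files held the same counts. All 27179 genes entered the library totals of 3554089 to 20054360 counts. The libraries carry no molecular identifiers, so amplified reads are not independent molecules.

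The analysis used edgeR 4.0.16 under R 4.3.3. A filter (filterByExpr, minimum count 10) left 19364 genes, TMM set the library sizes, and the 6 group means were fitted over all 18 libraries with 12 residual degrees of freedom. The fit shares its estimates of spread among the 6 groups. Replicates were not equally alike, with Pearson correlations of log2 CPM of 0.98 to 0.989 between WT cTEC libraries and 0.99 to 0.993 between WT mTEChi libraries. Contrasts were tested with glmQLFTest, with Benjamini-Hochberg adjustment over all genes tested and a threshold of 0.05. Every adjusted p printed for a gene is from this test, with 3 libraries per group. CPM are computed on TMM-scaled library sizes, and RPKM divide them by the gene lengths in the files. Within a genotype the subsets came from the same mouse pools, per the labels, and the deviations of libraries from the same pool correlated at -0.03 to 0.381 across genes, while WT and KO came from different pools. The pools are taken from the labels as separate samples, and the p-values measure the spread between them.

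Alternatives were RLE scaling, DESeq2 1.42.0, limma 3.58.1 (voom) with the mouse pool as a random block, no filter, a minimum count of 30, only the compared groups fitted, thinning to 3554089 counts, the pool as a fixed block for comparisons of subsets, and leaving out each library. Values per library are given for Mki67, Top2a, Cdk1, Ccnb1 and Bub3, and in each comparison of KO with WT for the 3 members with the smallest p, those with the highest and lowest estimate and members called against the majority. Some other members are given per library where the text sets them side by side. Of the other lists at most 4 genes per list and comparison were named, those with the smallest p, with Foxm1, Mybl2, Cdkn1a and Kat7. The members and lists were chosen with earlier results of these data known. Gene symbols are those of the files, and promoters were matched by symbol to RefSeq on GRCm38.p6, the assembly of mm10.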

Additional observations from a re-analysis of the deposited data

Results flagged for a closer look

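The results below are given because the effect of the knockout differed between subsets by a direct test of the difference in log2 fold change (edgeR's quasi-likelihood test, Benjamini-Hochberg adjustment over all genes). Between mTEChi and mTEClo the effect differed for 2 of the 40 genes, Spc25 (-1.58) and Kif11 (-1.37). That is 5% of them, lower in mTEChi, where 6.78% of all genes were lower and 6.72% higher by this test. Between mTEChi and cTEC it differed for 28, with the smallest p for Ube2c (-2.54), Spc25 (-1.96) and Nusap1 (-2.16). Of these 27 were lower (67.5%) and 1 higher, against 13.2% and 18.3% of all genes. Between mTEClo and cTEC it differed for 8, with the smallest p for Ube2c (-1.69), Nusap1 (-1.46) and Cenpe (-1.13). Of these 7 were lower (17.5%) and 1 higher, against 9.54% and 16.4% of all genes. Thymocyte markers rose in KO cTEC beside these genes (16 of 20), and their part in the differences that involve cTEC was not tested.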

How the results depend on the processing

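Results are members called, of 40. With only the compared groups fitted, 21 fell in KO mTEChi (9 in the fit of all libraries), 1 fell in KO mTEClo (0), 17 rose in KO cTEC (26), 1 was higher in WT mTEClo than in WT cTEC (3), and the knockout effect was lower in mTEChi than in mTEClo for 4 (2) and in mTEClo than in cTEC for 3 (7). With libraries thinned to the smallest total, 14 fell in KO mTEChi, 5 rose (8) and 1 fell in KO mTEClo, and 5 were higher in WT mTEClo than in WT cTEC. With limma voom and the mouse pool as a random replicate block (correlation 0.105), 16 fell in KO mTEChi and 5 were higher in WT mTEClo than in WT cTEC. With the pool as a fixed replicate block, 6 were higher in WT mTEClo than in WT cTEC, and 6 had a lower knockout effect in mTEChi than in mTEClo. The block moved no other count of members by more than 1.5 times.

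Leaving out 1 library gave 4 to 10 members that fell in KO mTEChi, 5 to 8 that rose in KO mTEClo, 17 to 28 that rose and 0 to 1 that fell in KO cTEC, 2 to 6 that were higher in WT mTEClo than in WT cTEC, and 9 to 17 that were lower in KO mTEClo than in KO cTEC. The difference of effects was called lower for 1 to 3 members between mTEChi and mTEClo, 20 to 29 between mTEChi and cTEC, and 2 to 10 between mTEClo and cTEC. Single estimates near 0 turned sign. Top2a in mTEClo (-0.22 to 0.14) turned to 0.14, 0.06 and 0.12 without WT mTEClo 2, WT mTEClo 3 and KO mTEClo 6, Espl1 in mTEClo (-0.70 to 0.20) to 0.20 without WT mTEClo 1, and Mki67 in cTEC (-0.28 to 0.16) to 0.13 and 0.16 without WT cTEC 3 and KO cTEC 6. None of these was called in any of the fits. The cause of these changes was not tested.

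Among all genes, 2436 instead of 3741 fell in KO mTEChi without WT mTEChi 3. RLE scaling moved the median of all genes between KO mTEChi and KO cTEC from 0.04 to 0.14. Every alternative kept the call of 5 of 10 members in mTEChi (Mki67, Mad2l1, Cdc25b, Ube2c and Spc25), 2 of 8 in mTEClo (Ccnb1 and Bub3) and 14 of 26 in cTEC, of 36 of 38 for WT mTEChi against mTEClo and of 38 of 38 for WT mTEChi against cTEC, each over 13 or 14 alternatives. Depth limits members with a few reads per library in WT mTEClo and WT cTEC.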

Other observations

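The ratio of counts between members within a library was looked at after their values had been seen, so the pairs were chosen on these data. Ccnb1 was at 0.494 to 0.580 counts per count of Mki67 in the 3 WT mTEChi libraries and at 0.931 to 1.23 in KO mTEChi. In mTEClo the ratio was 0.163 to 0.292 in the WT and 0.458 to 0.512 in the KO, and in cTEC 0.122 to 0.228 and 0.714 to 0.785. The ratio of Kif23 to Mki67 was 0.316 to 0.388 in WT and 0.638 to 0.748 in KO mTEChi, 0.146 to 0.416 and 0.520 to 0.629 in mTEClo, and 0.292 to 0.384 and 0.512 to 0.825 in cTEC. That of Prc1 to Mki67 was 0.548 to 0.559 and 1.06 to 1.21 in mTEChi, 0.561 to 0.673 and 0.841 to 1.22 in mTEClo, and 0.628 to 0.785 and 1.27 to 2.27 in cTEC. KO libraries lay above WT libraries for all 3 ratios in all 3 subsets. Each two-sided exact permutation p was 0.1, the smallest that 3 against 3 libraries can give. Because the pairs were chosen with these values known, that p does not count as a test. The ratios restate the changes of the single genes given above.

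Across the 40 members, Spearman's rho between the knockout effects was 0.467 for mTEChi and mTEClo, -0.07 for mTEChi and cTEC and 0.267 for mTEClo and cTEC, where all 19364 genes gave 0.431, 0.322 and 0.39. Genes are not independent replicates, and the subsets share their mouse pools.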
